A study of Mus musculus with 26 samples.

Results

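The respiratory chain subunit genes of mouse were examined for open chromatin at their promoters. They were taken as every protein-coding gene with an assigned peak whose symbol follows the naming of the subunits: Nduf with a, b, c, s or v for complex I, Sdh for complex II, Uqcr for complex III, Cox with a number from 4 to 8 for complex IV, and Atp5 for complex V. This gave 72 of the 15172 protein-coding genes that had a peak in at least 1 list: 33 of complex I, 3 of complex II, 7 of complex III, 13 of complex IV and 16 of complex V. Cox4i1, Ndufab1 and Cyc1 fall outside the naming rule. Cox7a2l, which joins complexes into supercomplexes, and Atp5s and Atp5sl, which are coupling or assembly factors, fall inside it although they are not core subunits. Ndufa4 bears a complex I name but is a subunit of complex IV, and it was counted here by its name.

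The respiratory chain sits in the inner mitochondrial membrane. Complexes I and II pass electrons from NADH and succinate to ubiquinone, complex III passes them on to cytochrome c, and complex IV, cytochrome c oxidase, passes them to oxygen. The proton gradient that complexes I, III and IV build drives complex V, the ATP synthase. Most subunits are encoded in the nucleus, and neurons depend on them for the ATP that ion pumping and synaptic transmission use.

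The assay was ATAC-seq: a transposase enters accessible DNA, cuts it and leaves sequencing adapters at the cuts. The nuclei came from medium spiny neurons (MSNs) of mouse brain, of the D1 type, with the dopamine receptor Drd1, or the D2 type, with Drd2. The title of the series names the nucleus accumbens. For each type there were mice given acute cocaine (SC, 4 D1 libraries and 1 D2 library), mice after long-term cocaine and an extended withdrawal (CS, 4 D1 and 8 D2), mice in cocaine relapse (CC, 4 D1 and 1 D2) and mice at baseline (SS, 2 D1 and 2 D2), 26 libraries in all. Strain, age, cocaine dose and the way nuclei were sorted are not given in the sources used here. Each of the 8 groups has 1 peak list, so there is no spread between replicates, no test between groups could be made, and every difference given here describes these lists.

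The promoters of 6 members are shown because they span what the peaks of these genes looked like. For each complex, the shown gene has the strongest promoter peaks among members with a peak in all 8 lists and a core of NRF1 or of an ETS factor in the promoter, both of which are known regulators of respiratory genes. Cox7b2, a testis isoform, had no promoter peak in any list. Each run holds 250 bases before and 20 bases after the RefSeq start (build GRCm38.p6), read 5′ to 3′ along the gene. Capitals mark matches on either strand to the cores GCGCATGCG (NRF1), CCGGAAG (ETS) and AAGATGGC (YY1).
Ndufa8 (chr2:36049319-36049588, minus strand): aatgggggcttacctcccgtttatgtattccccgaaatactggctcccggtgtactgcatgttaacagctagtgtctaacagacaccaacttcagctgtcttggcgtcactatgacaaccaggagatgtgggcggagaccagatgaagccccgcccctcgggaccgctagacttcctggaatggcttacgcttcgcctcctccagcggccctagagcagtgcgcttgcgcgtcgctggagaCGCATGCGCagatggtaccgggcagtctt
Sdhb (chr4:140961021-140961290, plus strand): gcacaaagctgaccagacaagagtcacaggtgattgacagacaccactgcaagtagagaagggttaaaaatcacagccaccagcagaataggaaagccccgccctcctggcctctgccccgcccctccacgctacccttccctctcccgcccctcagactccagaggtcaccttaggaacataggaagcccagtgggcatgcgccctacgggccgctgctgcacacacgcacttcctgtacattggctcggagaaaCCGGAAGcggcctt
Uqcr11 (chr10:80406802-80407071, minus strand): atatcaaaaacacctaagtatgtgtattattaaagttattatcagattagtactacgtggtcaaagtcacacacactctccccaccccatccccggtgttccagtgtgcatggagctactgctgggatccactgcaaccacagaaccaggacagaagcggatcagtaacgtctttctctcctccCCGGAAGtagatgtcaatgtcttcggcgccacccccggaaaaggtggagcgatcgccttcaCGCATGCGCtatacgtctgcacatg
Cox6a1 (chr5:115348939-115349208, minus strand): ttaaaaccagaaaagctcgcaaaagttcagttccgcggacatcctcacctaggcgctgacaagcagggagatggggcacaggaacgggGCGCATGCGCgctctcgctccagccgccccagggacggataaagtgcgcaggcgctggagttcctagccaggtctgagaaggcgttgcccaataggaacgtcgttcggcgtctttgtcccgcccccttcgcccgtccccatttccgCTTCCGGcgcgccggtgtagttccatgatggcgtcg
Atp5e (chr2:174464082-174464351, minus strand): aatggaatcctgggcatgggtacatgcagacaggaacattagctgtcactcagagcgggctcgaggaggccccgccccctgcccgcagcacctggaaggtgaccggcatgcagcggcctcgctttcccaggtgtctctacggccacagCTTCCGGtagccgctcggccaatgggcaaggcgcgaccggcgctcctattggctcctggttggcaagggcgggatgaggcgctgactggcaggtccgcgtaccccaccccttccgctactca
Cox7b2 (chr5:71548186-71548455, minus strand): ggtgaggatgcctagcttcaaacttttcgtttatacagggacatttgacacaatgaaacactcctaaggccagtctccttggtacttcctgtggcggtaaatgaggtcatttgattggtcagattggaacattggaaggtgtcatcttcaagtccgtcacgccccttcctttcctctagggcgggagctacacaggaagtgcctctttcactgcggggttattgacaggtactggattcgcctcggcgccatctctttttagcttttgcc

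In Ndufa8, which encodes an accessory subunit of complex I, the NRF1 core begins 9 bases before the start. In Uqcr11 an NRF1 core begins 5 bases and an ETS core 66 bases before the start. Cox6a1 holds NRF1 cores on both strands that overlap, beginning 162 and 161 bases before the start, and an ETS core 16 bases before it. The ETS core of Sdhb begins at base 7 after the start, and that of Atp5e 102 bases before it. All 270 bases of the Ndufa8, Cox6a1 and Atp5e runs lay inside the promoter peak of each of the 8 lists. Those of Sdhb and Uqcr11 did so in 7 lists. In D1 SS the Sdhb peak began 37 bases downstream of the RefSeq start and the Uqcr11 peak 24 bases downstream, so that 0 of the 270 bases shown lay in either peak.

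RefSeq windows of 300 bases (250 before and 50 after the start) were matched for 60 of the 72 members, 65 windows in all. The NRF1 core was in 10.8% of the member windows, against 1.75% of all 32851 windows, and the ETS core in 21.5%, against 8.86%. The YY1 core was in 13.8% of the member windows, against 2.75% of all. The GC-box core GGGCGG, bound by Sp factors, was in 38.5% of the member windows, against 35.7%, and TATAAA in 10.8%, against 13.6%. Because most windows of the genome carry no peak, the shares were also taken over the 9508 windows of genes with a promoter peak in all 8 lists, 52 of them of members. There the NRF1 core was in 9.62% of member windows, against 4.2% of all, the ETS core in 21.2%, against 18%, and the YY1 core in 11.5%, against 4.87%. GGGCGG was in 40.4% of member windows, against 65.5% of all, and TATAAA in 11.5%, against 6.56%. Within the open promoters the members thus held the NRF1 and YY1 cores more often and the GC box less often than the windows as a whole. These are matches of letters, counted on both strands and not tested. The YY1 core was in 7 of the 31 windows of complex I and 2 of the 16 of complex V, and in 0 of the windows of the other complexes. A median of 57.2% of the bases in a member's window were G or C, against 52.8% over all genes with a window and 62.0% over genes with a promoter peak in all 8 lists.

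The lists held between 27917 (D2 CS) and 77103 peaks (D1 CC), and they differ in more than the label. Peaks outside chromosomes 1 to 19, X and Y numbered 101 in D1 SC, 191 in CS and 210 in CC of D1, and 120 in D2 CS, which are called scaffold-rich here. D1 SS, D2 SC, D2 CC and D2 SS had 39, 46, 43 and 52 such peaks and are called scaffold-poor. The ratio of chromosome 7 to chromosome 18 peaks was 1.16 to 1.31 in the scaffold-rich lists, against 0.734 to 0.802 in the scaffold-poor ones. The labels do not say what separates the sets. The scaffold-rich lists come from 4 (D1 SC, CS and CC) or 8 libraries (D2 CS). The scaffold-poor lists come from 1 (D2 SC and D2 CC) or 2 (D1 SS and D2 SS). The split and the number of libraries thus cannot be told apart in any comparison given here. SC, CS and CC of D1 stand on the other side of this scaffold split from D1 SS, as does D2 CS from D2 SS, and the split and the cocaine state cannot be told apart in those comparisons. A peak of any kind was assigned to all 4 D1 markers (Drd1, Tac1, Pdyn, Isl1) in each D1 list and to 3 or 4 of them in the D2 lists. The 5 D2 markers (Drd2, Adora2a, Penk, Gpr6, Sp9) all had one in each D2 list, while D1 SC and D1 CS had 4, D1 CC 5 and D1 SS 1, so the presence of peaks at the markers parts the types only in part.

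Most respiratory chain genes had a promoter peak in every group. A promoter peak is one whose centre lies within 1000 bp of the start of the transcript that the authors assigned it to. In D1 nuclei 57 of 72 members (79.2%, exact 95% binomial interval 68 to 87.8%) had one in SC, 63 (87.5%) in CS and 61 (84.7%) in CC, against 53 (73.6%, 61.9 to 83.3%) in SS. Over all protein-coding genes the shares were 67.1% in D1 SC, 76.6% in CS and 80.3% in CC, against 58.1% in D1 SS. In D2 nuclei 60 members (83.3%) had one in SC, 61 (84.7%) in CS and 60 (83.3%) in CC, against 61 (84.7%) in SS. The shares of all genes were 71.1% in D2 SC, 69.1% in CS and 73.6% in CC, against 73.3% in D2 SS. The members lay above the share of all genes in each list, by the least in D1 CC, the longest list. In all 8 lists at once, 45 members (62.5%) had a promoter peak, against 51.6% of all genes.

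The lists name 1 gene for each peak, and many respiratory chain genes share a start region with a neighbour. Over the 8 lists there are 576 combinations of member and list, of which 476 had a promoter peak assigned to the member. In 58 of the other 100, from 14 genes, a peak did lie within 1000 bp of a start of the member but carried the name of a neighbour. In 42, from 13 genes, no peak lay there. Counted by position, whichever gene the peak was named for, 65 members (90.3%) had a promoter peak in D1 SC, 70 (97.2%) in CS and 71 (98.6%) in CC, against 60 (83.3%) in D1 SS. Each D2 list had 67 (93.1%, 84.5 to 97.7%). Over all genes the shares by position were 72.9% in D1 SC, 82.3% in CS and 86% in CC, against 63.6% in D1 SS, and 76.8% in D2 SC, 74.7% in CS and 79.3% in CC, against 79% in D2 SS. By position 59 members (81.9%) were open in all 8 lists, against 61.4% of all genes. The count by position was added after the assigned peaks had been examined.

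**Figure D1:**
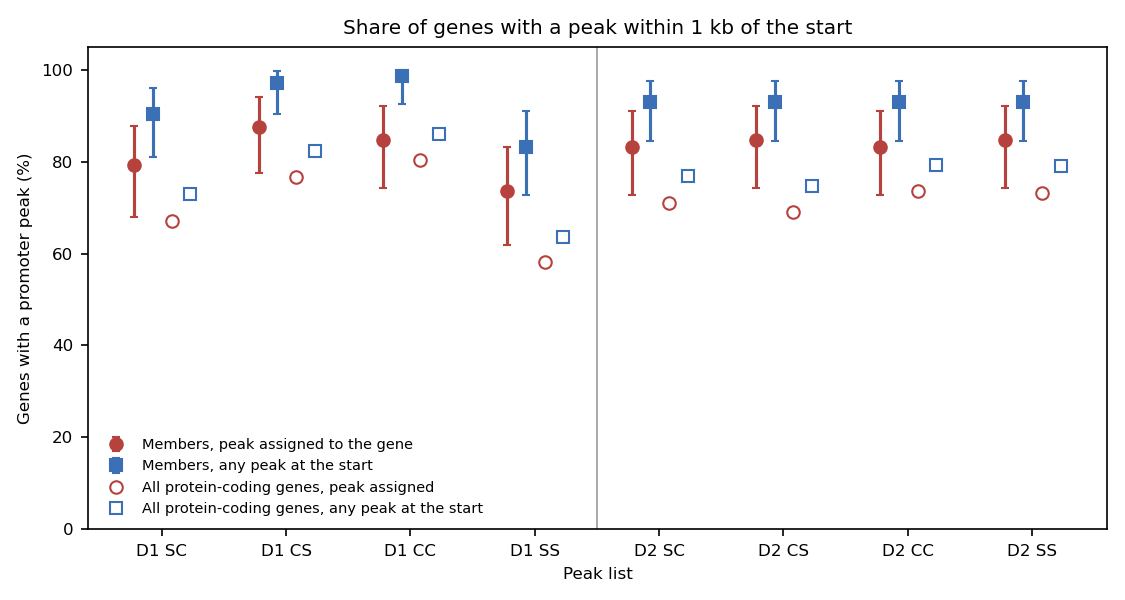
Share of genes with a promoter peak (y axis, %) in each peak list (x axis). Filled symbols are the 72 members with exact 95% binomial intervals for counting error, open symbols all 15172 protein-coding genes. Circles count peaks assigned to the gene and squares any peak at its start. Members lie above all genes in each list, and the lowest shares are those of D1 SS, 73.6% assigned and 83.3% by position.

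**Figure D2:**
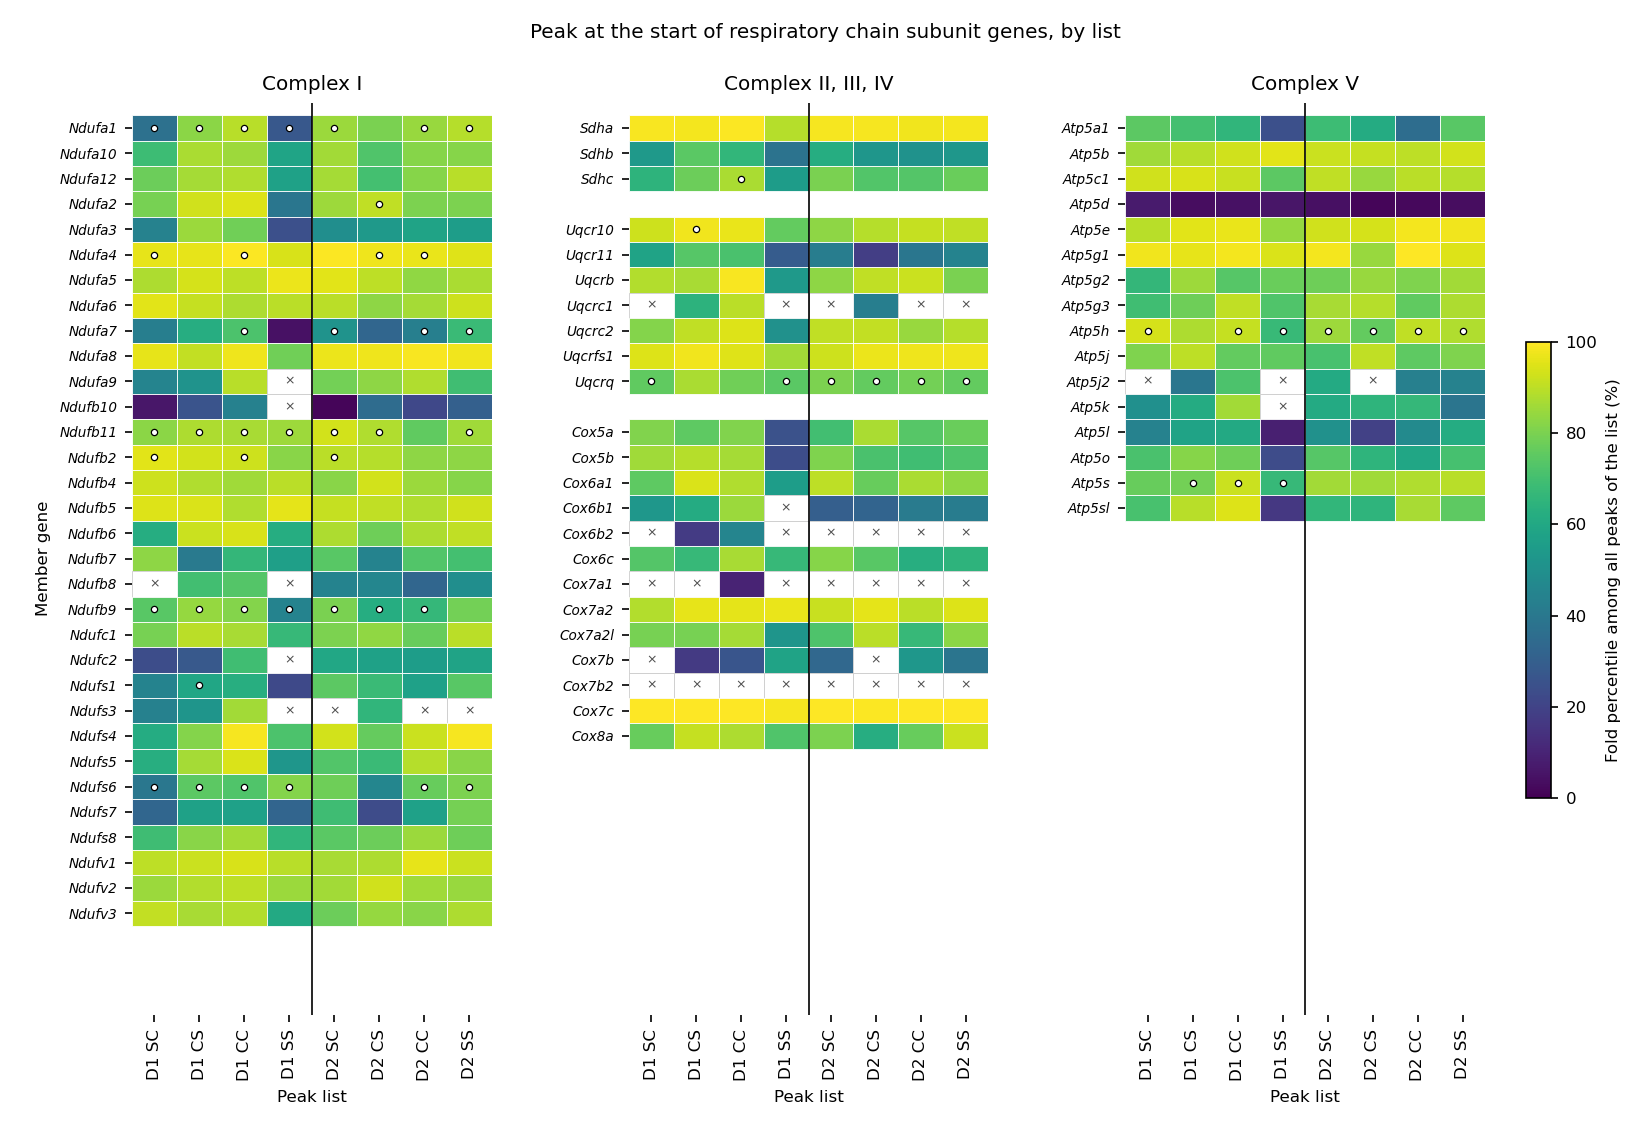
The members reported here (rows) in each peak list (columns). Colour gives the fold percentile of the promoter peak among all peaks of the list, from 0 (weakest) to 100 (strongest). A white dot marks a peak at the start that is named for another gene and a cross marks no peak there. Cox7c is near 100 and Atp5d below 10 in all 8 lists, and 12 of the 42 crosses stand in D1 SS.

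The plot of members by list shows where the crosses lie. Of the 42 combinations without a peak, 21 belong to 3 isoforms of complex IV that are made in other tissues, Cox7a1, Cox6b2 and Cox7b2. The other 21 are spread over 10 genes. By list, 7 members lacked a peak in D1 SC, 2 in CS and 1 in CC, against 12 in D1 SS, and 5 in each D2 list. Scaffold-poor lists held 27 and scaffold-rich lists 15 of the 42, and 12 of the 27 were in D1 SS. Over all genes D1 SS likewise had the lowest share by position, 63.6%, against 72.9% (D1 SC) to 86% (D1 CC) in the other lists. Without the D1 SS list, 64 members were open by position in the remaining 7 lists, against 67.9% of all genes, and 50 members by assigned peaks.

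Genes with no assigned peak could not enter the rule. RefSeq lists 82 protein-coding genes whose symbols follow it, and 12 of them had no assigned peak in any list. Of these, 7 had a peak over their promoter window that the lists name for the neighbour in 7 or 8 lists: Atp5md (named for Pdcd11), Atp5pb (Wdr77), Ndufb1 (Cpsf2 or AC121965.1), Ndufb3 (Fam126b), Sdhd (Timm8b) and Uqcrh (Lrrc41) in 8 lists and Ndufa11 (Vmac) in 7. Sdhd, a membrane anchor of complex II, lay under peaks at percentile 75.9 to 95.1 of fold, and Atp5pb, the b subunit of the stator of ATP synthase, at 87.8 to 97.4. Ndufa13 had such a peak in 1 list, D1 SC, at percentile 3.6. Cox8b, a heart and muscle isoform of complex IV, had none in the 8 lists. Atp5mpl, Cox6a2 and Cox8c are named only.

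Complex I, which oxidises NADH, had an assigned promoter peak in 81.4% of its 264 combinations of gene and list and, by position, in 96.6%. Over all protein-coding genes these shares were 71.1% and 76.8%, which are the values to set beside each complex. It holds 9 of the 14 genes whose start peak was named for a neighbour. Ndufa1 and Ndufb11 on chromosome X were named Rnf113a1 and Rbm10 in 7 lists each, Ndufb9 was named Tatdn1 in 7 and Ndufs6 was named Mrpl36 in 6. Ndufa4 was named Phf14 in 4 lists and Ndufa7 was named Rps28 in 4. Ndufb2 was named Gm16272 in 3 lists, and Ndufa2 and Ndufs1 were named Ik and Eef1b2 in 1 list each. By position, all 9 were open in all 8 lists.

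The catalytic core subunits of complex I differed widely in the strength of their promoter peaks. Fold enrichment is the ratio over background that the authors deposited for each peak. It is not scaled between lists, so each peak was placed by its percentile among all peaks of its list, where 100 is the strongest. Ndufv1, the subunit that binds NADH and FMN, was at percentile 90.2 in D1 SC, 91.9 in CS and 93.9 in CC, against 89.4 in D1 SS, and at 87.0 in D2 SC, 87.7 in CS and 96.4 in CC, against 91.9 in D2 SS. Ndufs7, an iron-sulfur subunit near the ubiquinone site, was at 32.7 in D1 SC, 57.1 in CS and 56.9 in CC, against 32.2 in D1 SS, and at 69.1 in D2 SC, 22.9 in CS and 56.9 in CC, against 79.2 in D2 SS. The ranges of Ndufv1 and Ndufs7, which were picked outside the rule for giving values in every list, do not overlap. Ndufs8 and Ndufv2, also of the core, had medians over the lists of 77.8 and 86.0.

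Ndufs3, a core subunit of the peripheral arm, had a promoter peak in exactly the 4 scaffold-rich lists. Its fold was 5.70 in D1 SC, 4.75 in CS and 7.30 in CC, with no peak in D1 SS, and 6.01 in D2 CS, with no peak in D2 SC, D2 CC or D2 SS. The percentiles of these 4 peaks were 43.7, 52.1, 86.2 and 65.5. The pattern is not particular to Ndufs3. By position, Cox20 and Mterf1a, from the related gene lists below, also lacked a peak in exactly D1 SS, D2 SC, D2 CC and D2 SS. The share of all genes with this pattern was not taken, and its cause was not tested. The 4 lists with the peak include both cell types.

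The other complex I members that lacked a peak are accessory subunits, and they lacked it in D1 SS. Ndufb10, the lowest of the complex by median percentile (25.9), was at 6.2 in D1 SC, 25.9 in CS and 43.6 in CC, and at 1.5 in D2 SC, 34.9 in CS and 21.7 in CC, against 30.1 in D2 SS. Ndufc2 was at 23.3 in D1 SC, 27.5 in CS and 69.2 in CC, and at 59.6 in D2 SC, 57.3 in CS and 55.1 in CC, against 57.9 in D2 SS. Ndufa9, which binds a nucleotide cofactor, was at 45.2 in D1 SC, 51.2 in CS and 89.1 in CC, and at 78.6 in D2 SC, 83.2 in CS and 88.0 in CC, against 69.5 in D2 SS. These 3 genes had a peak in every list but D1 SS. Ndufb8, a membrane-arm subunit, lacked one in D1 SC and D1 SS. It was at 69.8 in D1 CS and 73.4 in CC, and at 44.7 in D2 SC, 46.0 in CS and 32.6 in CC, against 48.9 in D2 SS.

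At the upper end of complex I, Ndufa8 was at percentile 96.3 in D1 SC, 90.8 in CS and 97.4 in CC, against 78.4 in D1 SS, and at 97.2 in D2 SC, 97.4 in CS and 99.1 in CC, against 97.8 in D2 SS. D1 SS was its lowest list.

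Complex II, succinate dehydrogenase, also works in the citric acid cycle, and its 3 members had a promoter peak by position in all 8 lists. Sdha, the flavoprotein that oxidises succinate, was among the strongest members, at percentile 98.9 in D1 SC, 98.2 in CS and 99.5 in CC, against 89.0 in D1 SS, and at 98.6 in D2 SC, 98.5 in CS and 97.7 in CC, against 98.3 in D2 SS. Sdhb, the iron-sulfur subunit, was at 53.6 in D1 SC, 74.3 in CS and 65.7 in CC, against 38.2 in D1 SS, and at 62.0 in D2 SC, 52.7 in CS and 51.1 in CC, against 52.8 in D2 SS. Sdhc, a membrane anchor, was at 64.5 in D1 SC, 77.7 in CS and 87.4 in CC, against 54.7 in D1 SS, and at 79.7 in D2 SC, 72.8 in CS and 73.3 in CC, against 77.3 in D2 SS. Sdha lay above Sdhb and Sdhc in all 8 lists. All 3 were lowest in D1 SS by this percentile, as was the median of all genes, while over the same genes Sdhb was at 21.0 in D1 SS and lowest, at 7.3, in D2 SS.

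Complex III, the cytochrome bc1 complex, had an assigned peak in 78.6% of 56 combinations and by position in 91.1%. Uqcrfs1, the Rieske iron-sulfur protein, was at percentile 94.9 in D1 SC, 98.0 in CS and 95.2 in CC, against 86.0 in D1 SS, and at 92.5 in D2 SC, 96.9 in CS and 97.6 in CC, against 97.3 in D2 SS. Uqcr11, a small accessory subunit, was at 58.1 in D1 SC, 73.5 in CS and 71.4 in CC, against 28.9 in D1 SS, and at 41.8 in D2 SC, 18.2 in CS and 39.1 in CC, against 44.6 in D2 SS. Uqcrfs1 exceeded Uqcr11 in all 8 lists. Uqcrc1, one of the core proteins, had a peak in 3 lists. Its fold was 5.34 in D1 CS and 7.84 in D1 CC, with none in D1 SC or D1 SS, and 4.97 in D2 CS, with none in the other D2 lists. All 3 are scaffold-rich. Uqcrc2, its partner core protein, had a peak in all 8 lists, between percentile 50.1 in D1 SS and 94.7 in D1 CC. The start peaks of Uqcrq and Uqcr10 were named for Gdf9 in 6 lists and for Zmat5 in 1.

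Complex IV had the lowest share of open promoters of the 5 complexes, 76.9% of 104 combinations by either count. Over all genes the share was 71.1% assigned and 76.8% by position, so complex IV was not below all genes. Most of its combinations without a peak belonged to 3 isoforms of other tissues. Without Cox7a1, Cox6b2 and Cox7b2 the share was 96.2% of 80 combinations. Cox7a1, the isoform of heart and skeletal muscle, had a promoter peak in D1 CC only, 279 bp wide with a fold of 3.20, at percentile 9.7. Cox6b2, the testis form of Cox6b, had one in D1 CS (fold 3.60, 203 bp) and in D1 CC (fold 4.40, 490 bp). Cox7b2 had a peak at least 45952 bp from its start in D2 CC and D2 SS and none at its promoter. D1 CC and D1 CS are the longest of the D1 lists, with 77103 and 48469 peaks, and the part of list length in these peaks was not tested.

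The subunits of complex IV that brain uses were open at their promoters. Cox7c, a small subunit, had the highest fold of all members in 7 lists and was second to Atp5g1 in D2 CC. Its fold was 13.5 in D1 SC, 12.3 in CS and 11.9 in CC, against 9.04 in D1 SS, and 12.1 in D2 SC, 11.2 in CS and 10.9 in CC, against 12.5 in D2 SS, which put it at percentile 98.8 to 100 of every list. Cox7a2, the widely used partner of Cox7a1, was at 88.5 to 96.8. Cox6b1, the widely used partner of Cox6b2, was weaker, at 52.9 in D1 SC, 61.0 in CS and 84.9 in CC with no peak in D1 SS, and at 29.8 in D2 SC, 31.8 in CS and 41.2 in CC, against 41.7 in D2 SS. Cox7b, on chromosome X, lacked a peak in D1 SC and in D2 CS. It was at 17.1 in D1 CS and 26.5 in D1 CC, against 58.2 in D1 SS, and at 33.4 in D2 SC and 53.0 in D2 CC, against 39.0 in D2 SS. Cox7b was the only member with a peak in D1 SS that D1 SC lacked.

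Complex V had an assigned promoter peak in 89.1% of 128 combinations and by position in 96.9%. Within the F1 head, Atp5b, the catalytic beta subunit, was at percentile 85.8 in D1 SC, 89.4 in CS and 92.7 in CC, against 95.6 in D1 SS, and at 91.8 in D2 SC, 91.4 in CS and 90.2 in CC, against 93.0 in D2 SS. Atp5a1, the alpha subunit, was at 74.7 in D1 SC, 70.0 in CS and 65.4 in CC, against 24.6 in D1 SS, and at 68.7 in D2 SC, 61.1 in CS and 35.4 in CC, against 74.2 in D2 SS. Atp5b lay above Atp5a1 in each list, and both were picked outside the rule for giving values in every list. Atp5c1, the gamma subunit of the central stalk, ranged from 74.8 to 94.0 and Atp5e, the epsilon subunit, from 84.1 to 98.2.

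Atp5d, the delta subunit of the same stalk, had the weakest promoter peaks of the members open in all lists. Its fold was 4.14 in D1 SC, 3.03 in CS and 2.89 in CC, against 3.24 in D1 SS, and 3.01 in D2 SC, 3.16 in CS and 2.55 in CC, against 2.75 in D2 SS, at percentile 1.3 to 7.2. The files give it 3 starts on chromosome 10, and up to 3 separate promoter peaks were found in a list. No base was covered by the strongest of them in all 8 lists.

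The c ring of ATP synthase is encoded by Atp5g1, Atp5g2 and Atp5g3, whose mature proteins are the same. Atp5g1 had the highest median percentile of complex V. It was at 98.0 in D1 SC, 96.2 in CS and 98.3 in CC, against 94.5 in D1 SS, and at 98.1 in D2 SC, 84.4 in CS and 99.7 in CC, against 94.9 in D2 SS. Atp5g2 ranged from 66.2 to 86.0 and Atp5g3 from 69.4 to 90.4. Atp5g1 exceeded both in every list except D2 CS, where the 3 were at 84.4, 84.7 and 88.7. Of the small membrane subunits, Atp5j2 lacked a peak in D1 SC, D1 SS and D2 CS and Atp5k lacked one in D1 SS. Atp5j2 was at 39.3 in D1 CS and 71.7 in CC, and at 60.8 in D2 SC and 43.2 in D2 CC, against 44.3 in D2 SS. Atp5k was at 49.7 in D1 SC, 61.1 in CS and 86.1 in CC, and at 60.6 in D2 SC, 65.0 in CS and 66.5 in CC, against 38.9 in D2 SS. The start peak of Atp5h, a stator subunit, was named for Kctd2 in 7 lists.

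Among all peaks the members' promoter peaks were strong, but among promoters they were in the middle. The median percentile of the members was 76.9 in D1 SC, 86.7 in CS and 87.0 in CC, against 65.3 in D1 SS, and 80.4 in D2 SC, 77.6 in CS and 82.0 in CC, against 82.3 in D2 SS. For promoter peaks of all genes it was 73.1 in D1 SC, 79.3 in CS and 82.1 in CC, against 67.4 in D1 SS, and 76.6 in D2 SC, 72.0 in CS and 77.4 in CC, against 78.2 in D2 SS. These percentiles depend on how many weak peaks a list holds. They were therefore also taken over the 7827 genes with a promoter peak in all 8 lists, 45 of them members, so that every list ranks the same genes.

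Over the same genes the median of the members was 52.8 in D1 SC (exact 95% interval for a median 42.6 to 64.8), 55.3 in CS (47.9 to 63.0) and 48.9 in CC (44.9 to 60.9), against 47.5 in D1 SS (34.8 to 60.4). In D2 it was 50.3 in SC (39.0 to 66.1), 59.5 in CS (41.0 to 71.1) and 52.2 in CC (35.2 to 59.4), against 53.1 in SS (40.7 to 63.2). All 8 intervals, which describe the spread over members and not over mice, hold 50. By complex, the median over lists of this median was 52.8 for I, 55.5 for II, 60.8 for III, 46.5 for IV and 44.4 for V.

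**Figure D3:**
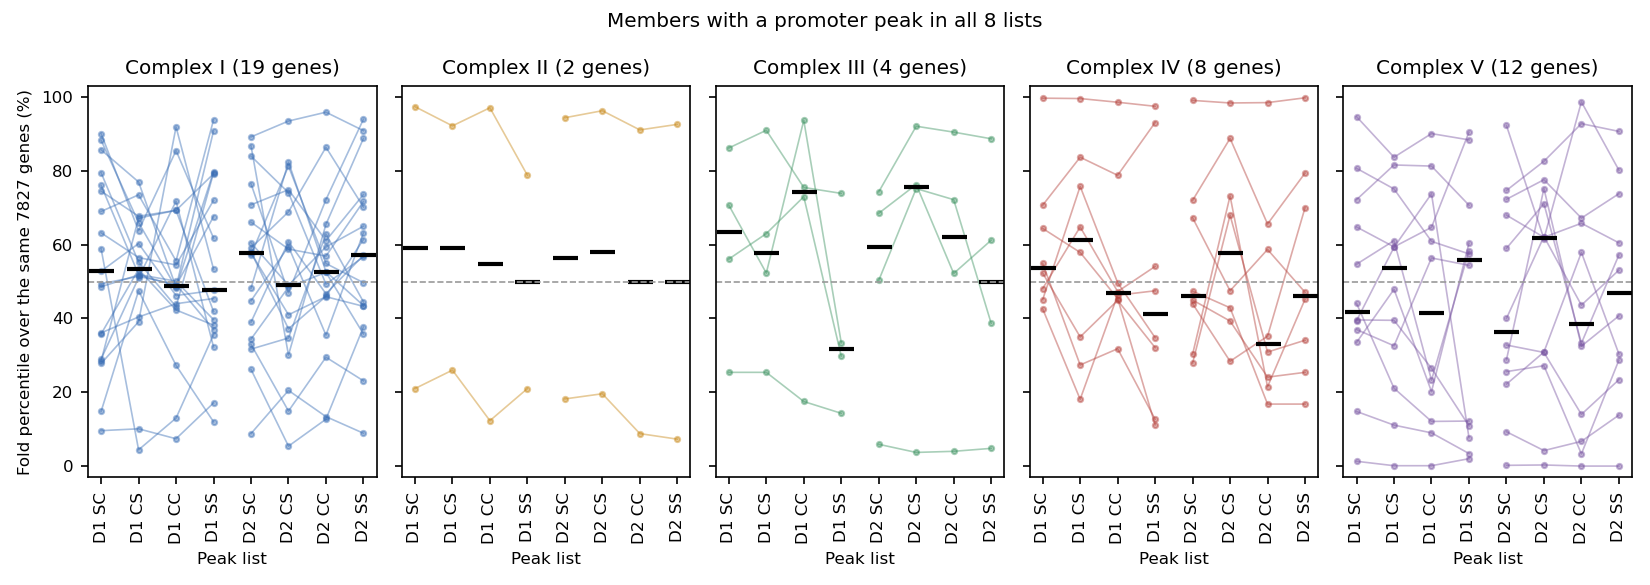
Fold percentile among the same 7827 genes (y axis, %) of the 45 members with a promoter peak in all 8 lists, by complex and peak list (x axis). Thin lines join the values of 1 gene within a cell type, black bars are medians and the dashed line is the middle of all genes. The medians of complex I lie close to 50, while single genes such as Cox7c and Atp5d keep to one end.

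Some members kept to one side of the middle. Of the 45 members, 10 were above the middle in all 8 lists, namely Atp5b, Atp5c1, Atp5e, Atp5g1, Cox7a2, Cox7c, Ndufa8, Ndufv1, Sdha and Uqcrfs1. A further 9 were below it in all 8 lists: Atp5a1, Atp5d, Atp5l, Atp5o, Cox6c, Ndufa3, Ndufs7, Sdhb and Uqcr11. These are 22.2% and 20% of the 45, against 27.2% and 26.4% of all 7827 genes. Cox7c was the only member above percentile 90 and Atp5d the only one below percentile 10 in every list, each 2.22% of the 45, against 1.7% and 1.74% of all genes. The median range of a member over the 8 lists was 37.1 percentile points, against 32.9 for all genes.

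The members with the widest range over the same genes include Ndufs4, an accessory subunit of complex I whose loss in mice models Leigh syndrome. It was at 27.8 in D1 SC, 39.1 in CS and 91.9 in CC, against 53.4 in D1 SS, and at 76.5 in D2 SC, 47.0 in CS and 72.2 in CC, against 94.0 in D2 SS. Neither cell type nor state orders these values. Atp5sl was at 39.4 in D1 SC, 59.3 in CS and 73.8 in CC, against 7.7 in D1 SS, and between 22.2 and 57.9 in the D2 lists. Uqcrb, a ubiquinone-binding subunit of complex III, was at 70.7 in D1 SC, 52.3 in CS and 93.7 in CC, against 33.4 in D1 SS, and at 50.3 in D2 SC, 75.2 in CS and 72.2 in CC, against 38.7 in D2 SS. Uqcrb was lower in SS than in the cocaine states in both cell types, and it is 1 gene chosen for its range. Cox5a, of complex IV, was at 54.9 in D1 SC, 27.4 in CS and 31.8 in CC, against 12.7 in D1 SS, and at 27.9 in D2 SC, 68.0 in CS and 30.9 in CC, against 34.1 in D2 SS.

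Promoter peaks of the members were about as wide as those of other genes or somewhat narrower. The median width was 649 bp in D1 SC, 760 bp in CS and 853 bp in CC, against 603 bp in D1 SS, and 722.5 bp in D2 SC, 646 bp in CS and 778 bp in CC, against 717 bp in D2 SS. Over all genes it was 660 bp in D1 SC, 770 bp in CS and 879 bp in CC, against 607 bp in D1 SS, and 730 bp in D2 SC, 681 bp in CS and 806 bp in CC, against 770 bp in D2 SS. The members' median was the narrower in each list. Over the 7827 genes with a promoter peak in all 8 lists it was also the narrower in each. There it went from 603 bp against 613 bp in D1 SS to 722 bp against 839 bp in D2 SS.

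The widest promoter peaks were those of Atp5j, which encodes the coupling factor F6 of the stator. They measured 1337 bp in D1 SC, 1407 bp in CS and 1609 bp in CC, against 1353 bp in D1 SS, and 1535 bp in D2 SC, 1358 bp in CS and 1668 bp in CC, against 1620 bp in D2 SS. Ndufb5, a membrane-arm subunit of complex I, followed among members with an assigned peak in all 8 lists, with 817 bp in D1 SC and 1031 to 1427 bp in the other lists. Uqcrq, Ndufb11 and Ndufs1, whose peaks are mostly or partly named for neighbours, also had wide peaks in the lists that name the member. The median was 1251 bp over 2 lists for Uqcrq and 970 bp over 7 lists for Ndufs1. Ndufb11 had 1225 bp in 1 list. At the narrow end, Ndufa7 had a median of 290 bp over the 4 lists that name it. Atp5l, the g subunit of ATP synthase, had 292 bp in D1 SC, 884 bp in CS and 269 bp in CC, against 258 bp in D1 SS, and 258 bp in D2 SC, 485 bp in CS and 1198 bp in CC, against 961 bp in D2 SS. Its width varied between lists without following cell type or state, and no base of it was shared by all 8. In D1 SC, D1 CC and D2 SC this width is that of the strongest of 2 or 3 separate promoter peaks. Each other list had 1 promoter peak for Atp5l.

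**Figure D4:**
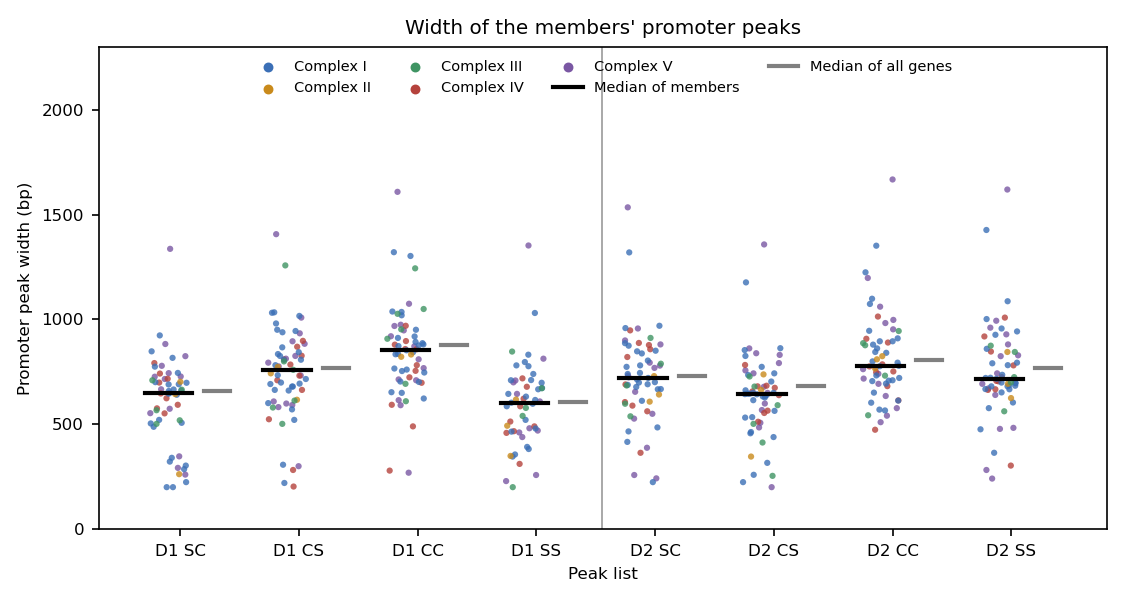
Width of the members' assigned promoter peaks (y axis, bp) by peak list (x axis). Each point is a gene coloured by complex, black lines are medians of the members and grey lines medians of all genes. The highest points in each list are Atp5j, 1337 to 1668 bp, and the medians of members and of all genes lie close together.

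The peaks sat closely on the annotated starts. Between 75.4% (D1 SC) and 85.2% (D2 CS) of the members' promoter peaks had their centre within 100 bp of the start, against 61% (D1 CC) to 67% (D1 SS) over all genes. Of the 45 members with an assigned promoter peak in all 8 lists, 43 (95.6%) had a stretch of DNA covered in all 8, with a median of 540 bp. Over all 7827 genes 90.8% had one, with a median of 563 bp. The 2 members without one are Atp5d and Atp5l.

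The comparison of each cocaine state with baseline asks which promoters open or close with cocaine exposure. In D1, all 3 comparisons use the same D1 SS list and cross the scaffold split. By position, 6 members had a promoter peak in D1 SC and not in D1 SS and 1 (Cox7b) the reverse, which is 8.33% and 1.39% of members, against 10.6% and 1.26% of all genes. For D1 CS the numbers were 10 and 0 (13.9% and 0%), against 18.9% and 0.204% of all genes. For D1 CC they were 11 and 0 (15.3% and 0%), against 22.5% and 0.0857% of all genes. These shares are bounded by the number that lacked a peak in D1 SS, 12 members, since 83.3% of members and 63.6% of all genes already had one there. Of those 12, 6 had a peak in D1 SC, 10 in CS and 11 in CC. Over all genes, 9645 of 15172 had a peak in D1 SS. Of the other genes, 1609 had one in D1 SC, 2874 in CS and 3412 in CC. A smaller part of the members than of all genes lacked a peak, so the shares above do not compare gains like for like. Between the cocaine states, 6 members had a peak in D1 CC and not in D1 SC and 0 the reverse (8.33% and 0%), against 13.2% and 0.185% of all genes. D1 CC and D1 CS differed by 1 gene (Cox7a1, 1.39%) and 0, against 4.83% and 1.17%.

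In D2 the sets of members with a promoter peak by position hardly differed between states. Each D2 list already had 67 of the 72 (93.1%), so at most 5 could be gained. Over all genes 79% had one in D2 SS, so here too gains are not compared like for like. D2 SC and D2 SS, both scaffold-poor, had the same 67 members, with 0 in either list alone, against 1.19% of all genes in D2 SC alone and 3.43% in D2 SS alone. D2 CC and D2 SS also had 0 and 0, against 2.23% and 1.89% of all genes. D2 CS had Ndufs3 and Uqcrc1, which D2 SS lacked, and lacked Atp5j2 and Cox7b, which D2 SS had. These are 2.78% and 2.78% of members, against 2.5% and 6.84% of all genes. That comparison crosses the scaffold split.

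Between the cell types at the same state, D1 SC alone had 1 member (Ndufs3) and D2 SC alone 3 (Atp5j2, Cox7b, Ndufb8). These are 1.39% and 4.17% of members, against 2.53% and 6.37% of all genes. D1 CS alone had 3 (4.17%: Atp5j2, Cox6b2, Cox7b) and D2 CS alone 0, against 8.56% and 0.916%. D1 CC alone had 4 (5.56%: Cox6b2, Cox7a1, Ndufs3, Uqcrc1) and D2 CC alone 0, against 7.55% and 0.923%. D1 SS alone had 0 and D2 SS alone 7 (9.72%: Atp5j2, Atp5k, Cox6b1, Ndufa9, Ndufb10, Ndufb8, Ndufc2), against 0.198% and 15.6%. No member was open in all D1 and no D2 lists or the reverse. The share of all genes with such a pattern was not taken, so this count has nothing to be set beside. The list with more peaks had the larger count in each of these 4 comparisons. The SC and CC comparisons cross the scaffold split, and there the split and the cell type cannot be told apart. Ndufs3 and Uqcrc1 also had a peak in D2 CS, which is scaffold-rich. The CS and SS comparisons stay on one side of the split.

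With each list cut to its 27917 strongest peaks by q-value, the members' counts parted in the same way as the scaffold-rich and scaffold-poor lists. The scaffold-rich lists had 57 members with an assigned promoter peak in D1 SC, 59 in CS, 56 in CC and 61 in D2 CS. The scaffold-poor lists had 52 in D1 SS, 51 in D2 SC, 51 in D2 CC and 52 in D2 SS. The counts of both sets do not overlap, and neither cell type nor state orders them. Over all genes the shares at this length were 66.9% in D1 SC, 66.4% in CS, 64.9% in CC and 69.1% in D2 CS, and 57.7% in D1 SS, 56.5% in D2 SC, 56.5% in D2 CC and 58.4% in D2 SS. The same split is thus seen in all genes.

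Widths of the same promoter differed between lists about as in other genes. The median log2 ratio of width was 0.16 for D1 SC over D1 SS (exact 95% interval 0.04 to 0.21, 50 members), against 0.14 over all genes. It was 0.35 for D1 CS over D1 SS (0.27 to 0.44), against 0.43, and 0.50 for D1 CC over D1 SS (0.36 to 0.65), against 0.62. Peaks were wider in D1 CC than in D1 SS for 48 of 49 members. In D2 the ratio was -0.04 for SC over SS (-0.10 to 0.02), against -0.07, then -0.17 for CS over SS (-0.28 to -0.10), against -0.21, and 0.08 for CC over SS (0.04 to 0.14), against 0.05. The members moved with all genes in direction in each of these 6 comparisons. Over the same genes, the median difference of fold percentile ranged from -1.7 points (D2 SC minus D2 SS) to 5.0 points (D1 CS minus D1 SS) among the 6, with intervals that hold 0 in all 6. Between cocaine states it was -4.6 for D1 CC minus D1 SC (-8.7 to -0.1) and -3.2 for D2 CC minus D2 SC (-8.8 to -0.1). These intervals do not hold 0, and they cover the spread over members, not over mice. For CC minus CS the difference was -2.1 in D1 (-11.1 to 2.1) and -1.9 in D2 (-14.0 to 3.8).

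Away from promoters the members carried few peaks. In D1, 2 of 66 member peaks (3.03%) lay over 1000 bp from the start in SC, 8 of 76 (10.5%) in CS and 20 of 86 (23.3%) in CC, against 4 of 59 (6.78%) in SS. In D2 these were 11 of 73 (15.1%) in SC, 1 of 65 (1.54%) in CS and 16 of 77 (20.8%) in CC, against 15 of 78 (19.2%) in SS. Over all genes the shares were 38.7% in D1 SC, 54.2% in CS and 66% in CC, against 45.6% in D1 SS, and 62.3% in D2 SC, 35.5% in CS and 65.6% in CC, against 62.7% in D2 SS. Members are short genes, with a median length of 7106.5 bp, against 26408.5 bp over all.

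Ndufs4, at 100300 bp the longest member after Cox7b2, held more sites outside promoters than any other member. Its body on chromosome 13 held 9 sites, 2 of which had a peak in 7 lists, all but D2 CS. The first of these lies at chr13:114379002-114379678 (mm10), at least 8576 bp from the start. Its fold was 5.70 in D1 SC, 5.19 in CS and 7.49 in CC, against 6.25 in D1 SS, and 7.53 in D2 SC and 6.56 in D2 CC, against 7.63 in D2 SS. The second lies at chr13:114345192-114345806, at least 42542 bp from the start, with a fold of 8.26 in D1 SC, 5.26 in CS and 6.09 in CC, against 4.39 in D1 SS, and 7.0 in D2 SC and 5.44 in D2 CC, against 5.52 in D2 SS. Both sites were present at baseline and after cocaine in D1. Ndufa10 held the only other site found in 7 lists, at chr1:92446827-92447468, with no peak in D1 SC. Between 1000 and 3000 bp from the start, peaks were found for 2 members, Atp5g2 (3 sites) and Ndufb4 (1 site).

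Related gene lists differed in how often they were open. The lists were fixed with earlier results of these data known, and their values are descriptions. Of 40 assembly factors of the complexes with a peak, 85.0% were open by position in all 8 lists, and of 17 genes of the citric acid cycle and pyruvate dehydrogenase 94.1%, against 81.9% of the members and 61.4% of all genes. Of 18 regulators of mitochondrial biogenesis, such as Nrf1, Gabpa and Tfam, 88.9% were. Mitochondrial ribosomal proteins (75 genes) had 76.0%, proteasome subunits (39 genes) 79.5% and cytosolic ribosomal proteins (89 genes) 84.3%. Of 6 respiratory genes that the naming rule leaves out, 3 (50%) were open in all 8 lists. Cox4i1, the main form of subunit 4 of complex IV, Cycs, which encodes cytochrome c, and Ndufab1 were open in all 8. Cyc1, the cytochrome c1 of complex III, and Atpif1, an inhibitor of ATP synthase, lacked a peak in D1 SS, and Ndufa4l2 had none in the 8 lists.

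In fold, assembly factors and the citric acid cycle list had the higher medians. Over the same 7827 genes, the median over lists of the median percentile was 70.3 for assembly factors and 72.5 for the citric acid cycle and pyruvate dehydrogenase, against 52.5 for the members. It was 52.8 for the regulators, 47.2 for mitochondrial ribosomal proteins, 55.2 for proteasome subunits and 45.3 for cytosolic ribosomal proteins. Within the citric acid cycle list, Dld and Sucla2 had median percentiles among all peaks of 98.9 and 98.8, close to 98.4 for Sdha.

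Members lacking a promoter peak somewhere had fewer CpG dinucleotides. The 47 members with a window and a peak by position in all 8 lists had a median of 20 CpG in the 300 bases, with a range of 11 to 39. The 13 that lacked a peak in 1 or more lists had a median of 15, with a range of 5 to 26. The lowest counts were 5 in Cox7b, 7 in Cox7a1 and 8 in Ndufc2. Over all genes, those with a promoter peak in all 8 lists had a median of 22.4 and those lacking one in some list 11.5. The members that lacked one thus lay above such genes as a whole. Of these members, 5 lacked a peak in D1 SS only, and the groups were not matched for the number of lists lacking one. Ndufs3 had 26 CpG, the most of the 13, and Atp5k and Ndufb8 had 19 each.

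**Figure D5:**
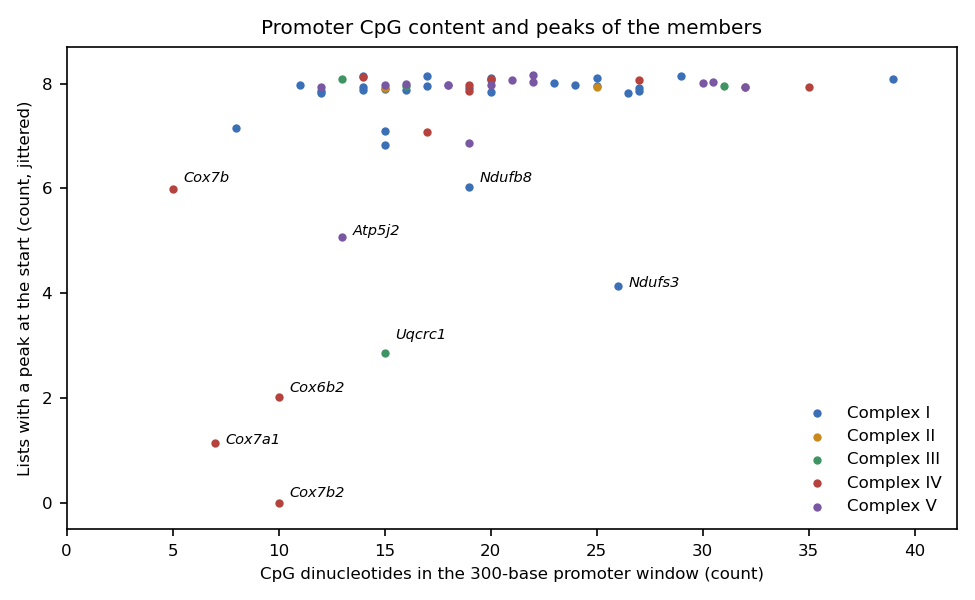
Number of lists with a peak at the start (y axis, jittered) against the number of CpG dinucleotides in the 300-base promoter window (x axis) for the 60 members with a RefSeq window, coloured by complex. Genes open in fewer than 7 lists are named. Apart from Ndufs3, with 26, the named genes have 5 to 19 CpG.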

How the data were processed

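The deposited files are 1 peak list per group, each with a peak's position, assigned gene, distance to its start, fold enrichment (a ratio over background) and q-value, all as the authors gave them. Per the submitters' processing notes, cutadapt, HISAT, SAMtools and MACS2 were used with build mm10. Versions, roles and whether libraries were pooled before peak calling are not given in the sources used here. The lists hold no counts, so depth per library is unknown. 0 columns of unmapped samples were found. The strongest peak by fold within 1000 bp of a start was taken for each gene. Percentiles rank fold within a list, because fold is not scaled between lists. Intervals are exact (Clopper-Pearson for shares, order statistics for medians, 95%) and cover counting error or the spread over genes only. Members and lists were chosen with earlier results of these data known. Values in every list were given for members lacking a peak, the extremes of percentile per complex, of width and of range, and the Sdh genes. Ndufv1, Ndufs7, Atp5b and Atp5a1 were also given in every list and were picked outside this rule. The count by position and the counts without D1 SS were added after seeing the data. Python 3.11.15, pandas 2.3.3, numpy 2.4.6, scipy 1.17.1 and matplotlib 3.10.9 were used, and the scripts were tested on simulated data. Some values of single genes are not reported here.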

Additional observations from a re-analysis of the deposited data

How the results depend on the processing

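Of 181 alternative values, 157 stayed within their interval or within 1.5 times the main count and 24 moved. Ranked among promoter peaks only, the members' median percentile was 55.2 in D1 SC, 63.5 in CS and 59.8 in CC, against 47.3 in D1 SS, and 56.0 in D2 SC, 57.3 in CS and 57.7 in CC, against 56.7 in D2 SS. Over the same 7827 genes it was 52.8 in D1 SC, 55.3 in CS and 48.9 in CC, against 47.5 in D1 SS, and 50.3 in D2 SC, 59.5 in CS and 52.2 in CC, against 53.1 in D2 SS. In lists of equal length it was 77.4 in D1 CS and 66.5 in CC, and 64.5 in D2 SC and 62.6 in D2 CC, against 67.4 in D2 SS. In D1 CC it was 91.4 when ranked by q-value and 84.9 with peaks at q up to 1e-05. Complex III had 27 combinations with a peak over the RefSeq window, against 44 assigned, because only members with a window were counted. No paired analysis was possible because the lists hold no value per library. With 1 list per group, replicate error is unknown, and the scaffold split and the cocaine state cannot be told apart in D1.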
